A study of Mus musculus with 6 samples.

Results

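Of the 9831 autosomal ZFP57 peaks called in JB1 embryonic stem cells (ESCs), 3718 overlapped by even 1 bp no ZFP57 peak of the reciprocal line BJ1 and no KAP1 peak of either line (37.8%, exact 95% binomial interval 36.9 to 38.8). These 3718 regions, referred to as ZFP57-only peaks, are described here. They were chosen by peak position alone, as called in the 4 lists, so the absence of KAP1 is a property of the selection and not a result. No filter was applied afterwards, and every region entered each count. The 836 JB1 ZFP57 peaks on the sex chromosomes were left out. The other 6113 autosomal peaks comprised 5765 that overlapped KAP1 in both lines, 271 with KAP1 of JB1 only, 65 with KAP1 of BJ1 only and 12 that overlapped a BJ1 ZFP57 peak without KAP1.

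JB1 and BJ1 are male ESC lines from F1 embryos of crosses between the strains JF1 and B6: JB1 came from JF1 x B6 and BJ1 from B6 x JF1, with the mother named first. Both grew without feeder cells on gelatin, in serum and leukaemia inhibitory factor. Chromatin immunoprecipitation followed by sequencing (ChIP-seq) with an antibody to ZFP57 or to KAP1 gave 1 library per line and antibody, and each genotype is represented by 1 cell line. The lists held 10667 ZFP57 peaks in JB1 against 1318 in BJ1, and 38713 KAP1 peaks in JB1 against 72535 in BJ1. They give positions with no height, score or read count, so sequencing depth is unknown and a peak that narrowly missed the calling threshold cannot be told apart from one that was absent. With 1 library per line and antibody there was no replicate error and no test between lines. The intervals given below are exact binomial intervals for shares and order-statistic intervals for medians, at the 95% level. They cover counting error only, since neighbouring peaks and copies of one sequence are not independent.

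ZFP57 is a zinc finger protein with a KRAB domain, the module through which this family recruits the co-repressor KAP1, also called TRIM28. It recognises the hexamer TGCCGC when the CpG within it is methylated. At imprinting control regions it binds the methylated parental allele, where with KAP1 it maintains DNA methylation and the histone mark H3K9me3 in early embryos and ESCs. KAP1 itself is brought to many other places, mostly repeated elements, by other KRAB zinc finger proteins.

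The sequences of 3 ZFP57-only peaks and of 1 peak with KAP1 in both lines show the range met in the data. All are read on the forward strand of NCBIM37/mm9. The first lies in an intron of Vps8, which encodes a subunit of an endosomal tethering complex (chr16:21643201-21643500), and was 1 of only 4 ZFP57-only peaks with 2 copies of TGCCGC, shown in capitals with the second on the reverse strand. The second lies in an intron of Shisa9, an auxiliary subunit of AMPA receptors (chr16:12048601-12048900), and was the single-copy region farthest from KAP1, with no motif. The third is intergenic (chr1:17956051-17956350) and holds, in capitals, the reverse complement of the 24-base string found in more ZFP57-only peaks than any other. The fourth is an intergenic peak with KAP1 of both lines (chr1:13953301-13953600), printed for comparison with its TGCCGC in capitals.

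Vps8 intron, 2 motifs: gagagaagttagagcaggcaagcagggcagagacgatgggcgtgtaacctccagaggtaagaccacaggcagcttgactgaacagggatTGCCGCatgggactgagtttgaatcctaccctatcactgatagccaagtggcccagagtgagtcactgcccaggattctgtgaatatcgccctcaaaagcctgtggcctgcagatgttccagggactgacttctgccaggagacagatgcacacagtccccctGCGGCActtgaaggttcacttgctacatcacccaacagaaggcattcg

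Shisa9 intron, single-copy: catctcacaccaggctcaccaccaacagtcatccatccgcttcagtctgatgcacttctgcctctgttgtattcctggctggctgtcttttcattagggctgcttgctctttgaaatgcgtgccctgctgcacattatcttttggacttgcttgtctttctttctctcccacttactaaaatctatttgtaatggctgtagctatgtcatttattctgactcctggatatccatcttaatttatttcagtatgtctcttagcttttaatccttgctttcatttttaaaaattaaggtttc

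Intergenic, shared string: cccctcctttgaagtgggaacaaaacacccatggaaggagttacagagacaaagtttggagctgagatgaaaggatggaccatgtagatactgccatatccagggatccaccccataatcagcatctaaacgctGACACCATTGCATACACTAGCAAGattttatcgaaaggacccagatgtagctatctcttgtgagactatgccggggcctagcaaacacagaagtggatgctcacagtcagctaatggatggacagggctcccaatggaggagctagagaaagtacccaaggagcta

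Peak with KAP1: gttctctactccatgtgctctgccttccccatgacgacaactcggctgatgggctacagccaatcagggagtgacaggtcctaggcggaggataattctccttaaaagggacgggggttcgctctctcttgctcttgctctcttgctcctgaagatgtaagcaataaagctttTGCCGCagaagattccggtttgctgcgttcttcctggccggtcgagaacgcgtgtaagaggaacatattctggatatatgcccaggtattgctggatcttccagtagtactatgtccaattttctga

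The hexamer TGCCGC was rare in ZFP57-only peaks as read in mm9. This assembly is the B6 sequence, so a motif present only on the JF1 allele would be missed, in any class of peaks. Searched on both strands, it occurred in 55 of 3718 (1.48%, interval 1.12 to 1.92), against 48.5% of all autosomal JB1 ZFP57 peaks and 4599 of the 5765 peaks with KAP1 of both lines (79.8%, 78.7 to 80.8). In every autosomal window free of unknown bases on the same 150 bp grid, weighted to the widths of the ZFP57-only peaks, the share was 2.79%. The share in ZFP57-only peaks was therefore below the genome's and its interval did not reach it. A motif of either form TGCCGC or GGCCGC was found in 91 (2.45%, 1.98 to 3.00), against 4.71% of width-weighted windows and 87.0% of the peaks with KAP1.

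**Figure D1:**
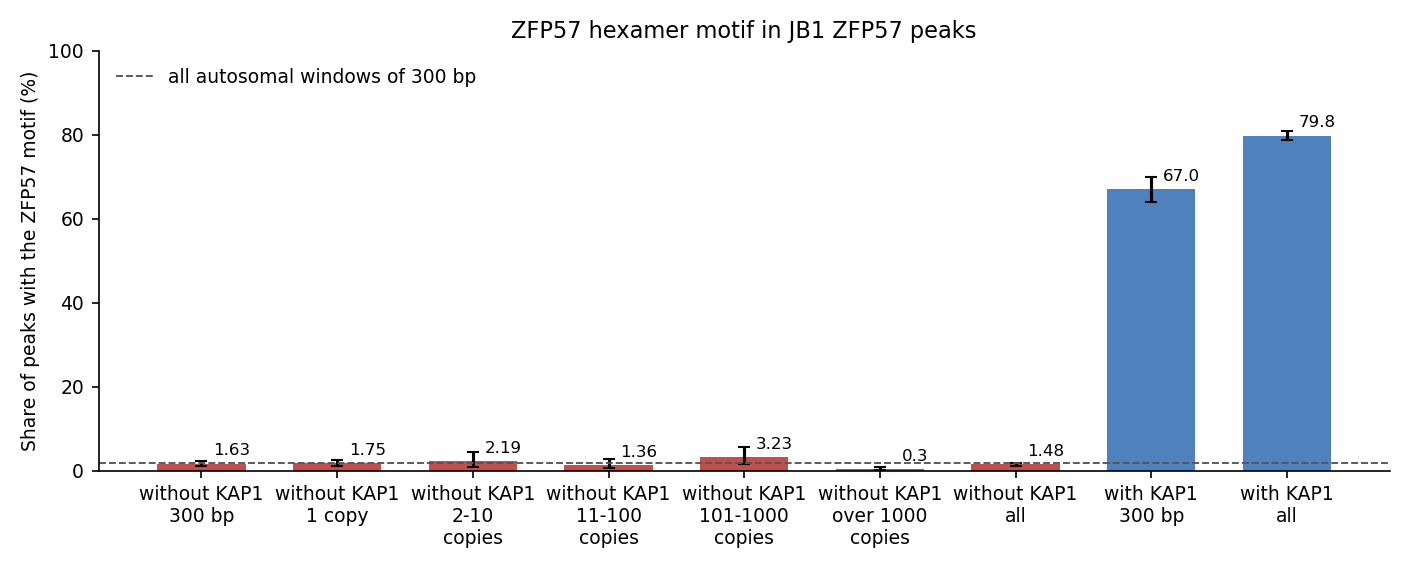
Share of JB1 ZFP57 peaks holding the ZFP57 hexamer (y axis, percent) in classes of peaks (x axis), with exact 95% binomial intervals as error bars and the share in all autosomal windows of 300 bp as a dashed line. The 7 red bars, classes of peaks without KAP1, lie between 0.3% and 3.23%, and the 2 blue bars, peaks with KAP1 of both lines, at 67.0% and 79.8%.

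Regions of equal width showed a like contrast. Among those of exactly 300 bp, 34 of 2088 ZFP57-only peaks held TGCCGC (1.63%, 1.13 to 2.27), a share whose interval includes the 1.86% of all 15957160 autosomal windows of that width. Of the peaks with KAP1 of the same width, 624 of 931 held it (67.0%, 63.9 to 70.0). Among regions whose 24-base strings occur a median of 1 time in mm9, the shares were 27 of 1544 (1.75%) and 468 of 524 (89.3%), although at median widths of 300 and 600 bp.

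The number of motifs per region differed likewise. No ZFP57-only peak held more than 2 copies of TGCCGC, whereas 849 peaks with KAP1 held 2 or more (14.7%) and the highest held 37. The 4 with 2 copies were the Vps8 intron printed above, a region at the start of Krtap1-5 (a keratin-associated protein gene of hair), a coding exon of 4930529M08Rik, and an intergenic region on chromosome 12 that lay 150 bp from a KAP1 peak. Of the 55 regions with the motif, 27 were single-copy, 34 were 300 bp wide, 23 were in genes, and 4 were within 1 kb of a transcription start site (TSS). A KAP1 peak lay within 1 kb of 15 of the 55, against 184 of all 3718 (4.95%). In the Vps8 region the copies begin at 21643290 on the forward strand and 21643453 on the reverse strand, 163 bp apart, and the nearest KAP1 peak was 14550 bp away.

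ZFP57-only peaks were lower in GC than peaks with KAP1 and close to the genome. Their median GC content was 41.7% (41.6 to 41.8) over all widths and 42.3% (42 to 42.7) for those of 300 bp, against 41.7% of autosomal 300 bp windows, and peaks with KAP1 had 49.7% (49.6 to 49.8). The median number of CpG dinucleotides was 6.67 per kb in ZFP57-only peaks and 36.7 per kb (36 to 36.7) in peaks with KAP1. The 55 regions with TGCCGC had a median GC content of 47% and 13.3 CpG per kb.

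ZFP57-only peaks ranged from single-copy to highly repeated sequence. Each region was scored by how often its 24-base strings occur in mm9 on either strand, taking the median over the region, so that a region called single-copy may still be repeated in part. In 1544 this median was 1 copy (41.5%, 39.9 to 43.1), in 320 it was 2 to 10 (8.61%), in 513 it was 11 to 100 (13.8%), in 341 it was over 100 and up to 1000 (9.17%) and in 1000 it was over 1000 (26.9%, 25.5 to 28.4). Among 15956 windows of 300 bp, every 1000th on the grid, 83.0% were single-copy and 4.29% had over 1000 copies. ZFP57-only peaks were thus less often single-copy than the genome, and more often so than the peaks with KAP1, of which 9.09% were single-copy and 51.8% had over 100 and up to 1000 copies. How reads matching several places were treated is not given in the sources used here.

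**Figure D2:**
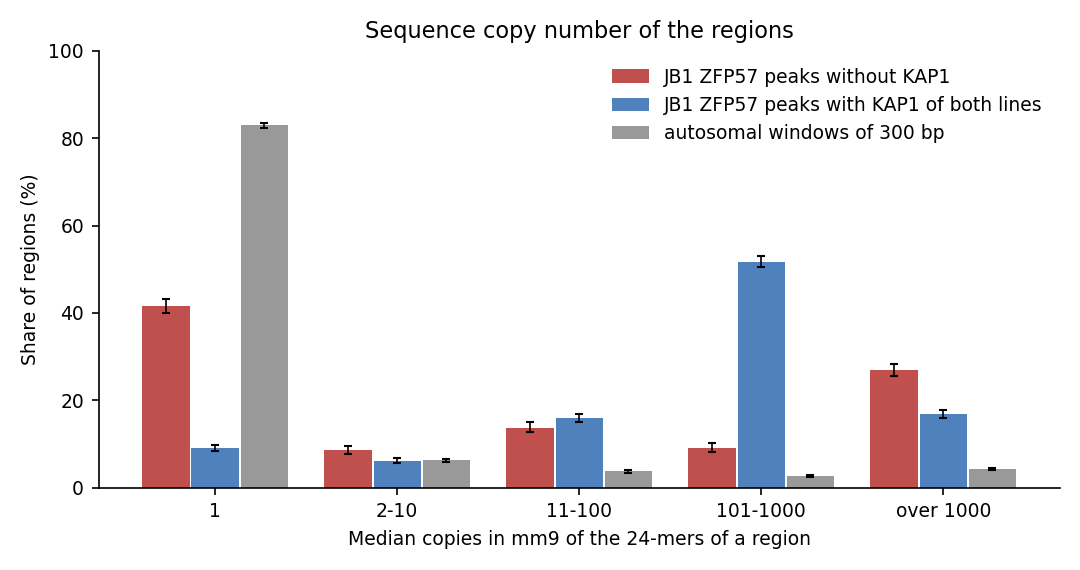
Share of regions (y axis, percent, with exact 95% binomial intervals) in 5 classes of sequence copy number (x axis, median copies in mm9 of a region's 24-base strings), for ZFP57-only peaks in red, JB1 ZFP57 peaks with KAP1 of both lines in blue and autosomal windows of 300 bp in grey. The red bars are highest at 1 copy (41.5%) and over 1000 copies (26.9%), the blue bars at over 100 and up to 1000 copies (51.8%).

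The most shared 24-base string of either class was rare or absent in the other. The most shared string of the ZFP57-only peaks occurs 34762 times in mm9, and was found in 161 of them (4.33%) and in 3 of the 5765 peaks with KAP1 (0.0520%). The most shared string of the peaks with KAP1 occurs 5315 times, and was found in 2499 of them (43.3%) and in 0 of the 3718 ZFP57-only peaks, which at a limit of 3 counts allows a share of up to 0.0807%. Neither string contains TGCCGC or GGCCGC. In the KAP1 peak printed above the second string lies shortly before the motif. The strings were chosen as the most shared of their own class, so these counts are a description of 2 strings and not of the repeated regions in general.

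Most shared among ZFP57-only peaks: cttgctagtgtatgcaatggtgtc

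Most shared among peaks with KAP1: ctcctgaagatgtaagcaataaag

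The motif was nearly absent from the highly repeated regions. Of the 1000 ZFP57-only peaks with over 1000 copies, 3 held TGCCGC (0.3%, 0.0619 to 0.874). Of the 341 with over 100 and up to 1000 copies, 11 held it (3.23%, 1.62 to 5.70). The intervals of the remaining classes, with 27 of 1544, 7 of 320 (2.19%) and 7 of 513 (1.36%), overlap one another.

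ZFP57-only peaks were narrow, with a median width of 300 bp against 450 bp for the other JB1 ZFP57 peaks. Since a wide peak overlaps another more easily, width is tied to the selection and the difference is given as a description. Exactly 2088 regions had the smallest width in the list, 300 bp (56.2%), 1050 had 450 bp and 318 had 600 bp. The 262 wider regions (7.05%) made up 26.9% of the 1764 kb covered. Single-copy regions were 300 bp wide in 75.1% of cases (72.9 to 77.3), against 30.6% (26.6 to 34.8) of the regions with 11 to 100 copies.

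All 57 regions of 2 kb or more had a median of 2 to 100 copies, and 35 of them were on chromosome 14. The widest spanned 19650 bp (chr1:87385201-87404850), was intergenic, had a median of 7 copies, and lay 3484 bp from the nearest TSS, of Gm2666, and 80916 bp from the nearest protein-coding TSS, of Sp110, which encodes a nuclear body protein. The next were 17400 bp over a coding exon of 4930467E23Rik on chromosome 8, which abutted both a KAP1 and a ZFP57 peak of BJ1 with a gap of 0 bp, 12900 bp of intergenic sequence on chromosome 8, 11700 bp over an exon of Gm16026 on chromosome 1, and 10050 bp within Gm10406 and Gm3739 on chromosome 14. These 5 had medians of 6 to 34 copies. The widest single-copy region spanned 900 bp in an intron of Cfhr2, a complement factor H-related gene on chromosome 1.

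Most ZFP57-only peaks lay outside annotated genes. By GENCODE M1, 2443 were intergenic (65.7%), 1000 intronic (26.9%), 135 within 1 kb of a TSS (3.63%, 3.05 to 4.28), 93 in coding exons (2.50%) and 47 in other exons (1.26%). The background over all autosomal JB1 ZFP57 peaks within 1 kb of a TSS was 2.97%, and over width-weighted autosomal windows it was 5.02%. The share was below that of windows for regions of 300 bp (2.63%, 1.99 to 3.41, against 4.72% of 300 bp windows). For those of 450 bp or more it was 4.91%, against 4.99% of 450 bp and 5.26% of 600 bp windows. These regions were up to 19650 bp wide and no window share weighted to their widths was computed, so the 2 shares are not matched. The interval for the other JB1 ZFP57 peaks was 2.19 to 3.00 around 2.57%. Regions outside any gene numbered 2477 (66.6%, 65.1 to 68.1), a share between the 57.7% of windows and the 77.1% (76.0 to 78.1) of the other JB1 ZFP57 peaks.

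Gene context varied with copy number. A TSS lay within 1 kb of 51 of 1544 single-copy regions (3.30%), of 41 of 320 with 2 to 10 copies (12.8%, 9.35 to 17.0), of 36 of 513 with 11 to 100 copies (7.02%) and of 4 of 1000 with over 1000 copies (0.4%). Regions outside genes made up 60.6% (58.1 to 63.0) of the single-copy and 79.5% (76.9 to 82.0) of the over-1000-copy class. Of the 135 regions near a TSS, 37 were on chromosome 14. Without the dense stretches of that chromosome described below, 2.84% of regions lay within 1 kb of a TSS.

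A total of 25 ZFP57-only peaks had the TSS of a protein-coding gene inside them, 9 of them on chromosome 14, and 8 were single-copy. The 8 were at St18 and Carf, which encode transcription factors and lie on chromosome 1, Zfp616 and Zc3h7a, which encode zinc finger proteins, Krtap1-5, Gpr98 (an adhesion G protein-coupled receptor), Sema5b (a semaphorin, an axon guidance family) and Clec2e (a C-type lectin). They were 300 or 450 bp wide and lay 4200 to 75150 bp from the nearest KAP1 peak. The Krtap1-5 and Sema5b regions held TGCCGC, with 2 copies and 1 copy, and the other 6 did not. The 10 widest of the 25 spanned 1350 to 9300 bp, and all had medians of 6 to 62 copies. Of these 10 regions 8 were on chromosome 14, and the widest were at Gm10354 and 4930572O03Rik on chromosome 5.

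Of 21418 autosomal protein-coding genes, 909 had a ZFP57-only peak in the gene or within 1 kb (4.24%). They were long, with a median length of 117 kb against 14.6 kb for genes without one. The shares of gene lists are read against that 4.24%, which is not matched for gene length. Median gene length was 0.538 kb for histone, 0.96 kb for olfactory receptor and 1.08 kb for vomeronasal receptor genes. The longest median of a list was 27.3 kb, for genes of the ZFP57, KAP1 and methylation machinery. Among 52 imprinted genes, where ZFP57 is best known to act, 1 had a ZFP57-only peak (1.92%, 0.0487 to 10.3), namely Kcnq1, and 23 had a ZFP57 peak with KAP1 of both lines (44.2%), which 831 of all 21418 genes had (3.88%). The Kcnq1 region was single-copy, 450 bp wide and intronic, 134492 bp from the TSS and 3600 bp from a KAP1 peak. The SNORD116 array of an imprinted domain, where 7 ZFP57-only peaks described below lay, was not counted in this list.

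Among germline genes that DNA methylation keeps silent, 2 of 25 had a ZFP57-only peak. These were Mael, of the piRNA pathway, in a coding exon 12575 bp from its TSS, and Sycp1, of the synaptonemal complex, in an intron 14473 bp from its TSS. Both were single-copy and lay 45600 and 34200 bp from KAP1. None was found at 25 pluripotency factors, 25 genes of the ZFP57, KAP1 and methylation machinery, 18 genes of the 2-cell stage, 40 Hox genes, 76 histone genes, 73 ribosomal and 77 mitochondrial ribosomal protein genes. The upper end of the exact two-sided 95% interval is 13.7% for a list of 25 and 4.68% for the list of 77. The intervals of all these lists include the 4.24% of all genes. A limit of 3 counts, as used for the strings above, gives 3.95% for histone, 4.11% for ribosomal and 3.90% for mitochondrial ribosomal protein genes, below 4.24%. For the other lists with none it gives 7.5% or more. Since the 2 bounds differ and gene length is not matched, no difference from all genes is read from these lists. Of 24 clustered protocadherins 1 had one, in an intron of Pcdhgc5.

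The large families stood at or below the share of all genes. Numbered Zfp genes had 11 of 362 (3.04%, 1.53 to 5.37) and vomeronasal receptor genes 11 of 321 (3.43%, 1.72 to 6.05). Olfactory receptor genes, which are short, had 19 of 1106 (1.72%, 1.04 to 2.67), and 1 of 1106 had a ZFP57 peak with KAP1 of both lines (0.0904%, against 3.88% of all genes). The Zfp genes nearest by TSS were Zfp616 at 0 bp, Zfp933 at 1675 bp and Zfp735 at 5821 bp. The olfactory genes nearest by TSS were Olfr342 and Olfr644, both at 43 bp and both single-copy, 13350 and 9600 bp from KAP1, and Olfr694 at 193 bp with 2 copies. Vmn1r174 had a region with 3 copies 21 bp from its TSS.

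ZFP57-only peaks were unevenly spread over the chromosomes. Chromosome 14 held 416 (3.32 per Mb) and chromosome 1 held 471 (2.39 per Mb), while the other 17 autosomes held 0.878 to 1.73 per Mb with a median of 1.30. The other JB1 ZFP57 peaks were also densest on chromosome 14, at 2.92 per Mb against 2.07 to 2.85 on those 17 autosomes, and on chromosome 1 they came to 2.50 per Mb, inside that range.

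**Figure D3:**
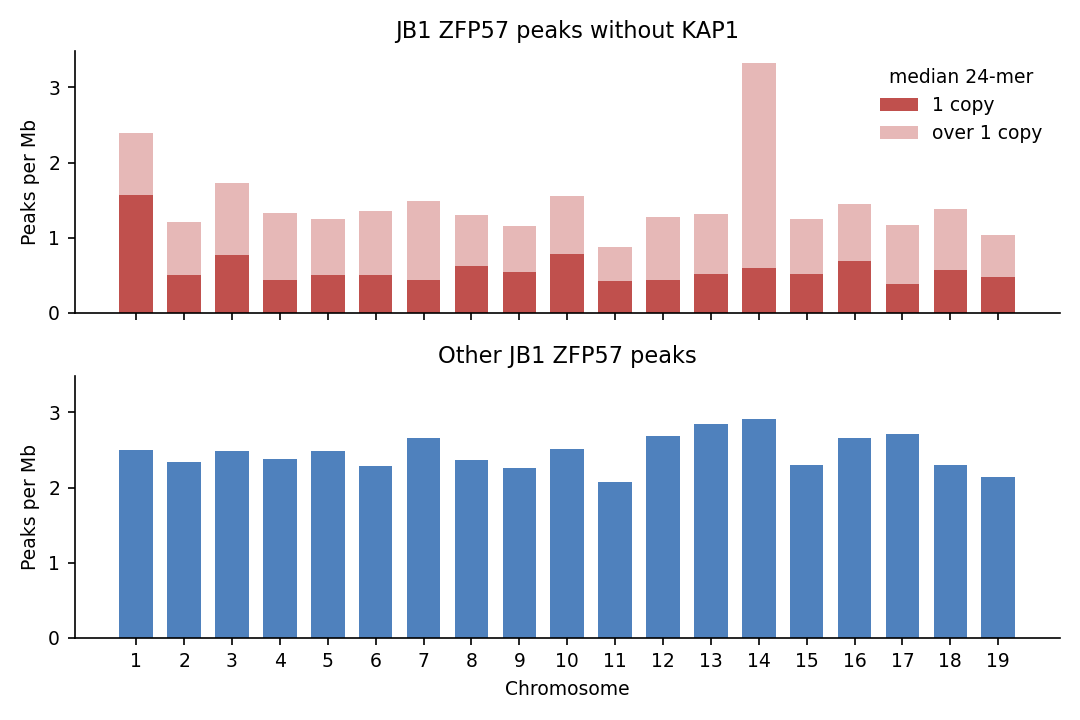
Peaks per Mb (y axes, same scale) on each autosome (x axis) for ZFP57-only peaks (top, stacked by single-copy and repeated sequence) and for the other JB1 ZFP57 peaks (bottom). Chromosome 1 stands out by its single-copy regions (1.57 per Mb) and chromosome 14 by its repeated ones (2.72 per Mb).

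On chromosome 1 the surplus was in single-copy sequence. It held 309 of the 1544 single-copy ZFP57-only peaks (20.01%, 18.0 to 22.1), against 7.98% of autosomal length, which is 1.57 per Mb compared with 0.388 to 0.785 on the 17 autosomes other than 1 and 14. Of the 2174 repeated regions it held 162 (7.45%, 6.38 to 8.64), an interval that includes its share of length. The surplus was spread along the chromosome. Its 9 full bins of 20 Mb held 18 to 51 single-copy regions each with a median of 35, and the 106 bins of the other autosomes held 1 to 22 with a median of 10, of which 12 reached 18.

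For comparison, chromosome 1 carried 8.52% of the autosomal KAP1 peaks of JB1 and 8.33% of those of BJ1. Among the 541 autosomal BJ1 ZFP57 peaks that overlapped no JB1 ZFP57 peak and no KAP1 peak of either line, 97 were on chromosome 1 (17.9%, 14.8 to 21.4). The input libraries have no peak list and were not analysed here, and whether read coverage of chromosome 1 differed from that of other chromosomes was not tested.

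On chromosome 14 the surplus was in repeated sequence and in few places. It held 341 of the 2174 repeated regions (15.7%, 14.2 to 17.3) and 75 of the single-copy ones (4.86%, 3.84 to 6.05), against 5.06% of autosomal length. Between 3 and 9 Mb there were 180 ZFP57-only peaks (30 per Mb), all 180 with over 1 copy. Their median was 36 copies in mm9, and the median counted on chromosome 14 alone was 35. Between 42 and 45 Mb there were 58 (19.3 per Mb), 57 of them repeated, with a median of 10 copies. The stretches were chosen for their density and are a description. None of these 238 regions held TGCCGC, which allows a share of up to 1.26%.

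Elsewhere on this chromosome the density was lower. The remaining 178 regions of chromosome 14 came to 1.53 per Mb, within the range of the 17 autosomes. All 9 autosomal bins of 1 Mb with 15 or more ZFP57-only peaks were on chromosome 14, and the next highest bin held 11. Other JB1 ZFP57 peaks numbered 17 between 3 and 9 Mb (2.83 per Mb) and 12 between 42 and 45 Mb (4 per Mb), against 2.92 per Mb for the chromosome. KAP1 peaks were present at 20 per Mb in JB1 and 36.7 per Mb in BJ1 in the first stretch and at 23.7 and 40.3 per Mb in the second, against 14.7 and 27.1 per Mb for the chromosome.

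Genes of these stretches led the count of ZFP57-only peaks per gene. Gm10406 had 19, Gm3739 17, Gm3002 13, Gm3358 12 and Gm3383 9, all predicted protein-coding genes on chromosome 14, some of which overlap and share regions. Their members had medians of 33 to 43 copies and lay 450 to 30450 bp from KAP1. Of genes outside chromosome 14, Erbb4, a receptor tyrosine kinase gene of 1076 kb on chromosome 1, had 7 regions of which 6 were single-copy, and Gm8897, a predicted gene on chromosome 5, also had 7, none of them single-copy. Both were singled out after their values were seen.

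ZFP57-only peaks were less often within 10 kb of each other than were the other JB1 ZFP57 peaks, which are the larger set. No background of regions placed at random was computed. Whether ZFP57-only peaks lie closer together than by chance was therefore not tested. Linking regions less than 10 kb apart, 342 lay in a run with another (9.20%, 8.29 to 10.2), against 52.1% (50.8 to 53.3) of the other JB1 ZFP57 peaks linked among themselves. There were 151 runs, 124 of them pairs, and 59 were on chromosome 14. The median spacing was 322350 bp. Single-copy regions were in runs with each other in 44 of 1544 cases (2.85%, 2.08 to 3.81), all in pairs, and regions with 11 to 100 copies in 132 of 513 (25.7%, 22.0 to 29.7). Outside chromosome 14 the share was 5.94% (5.15 to 6.80).

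The largest run lay over part of the SNORD116 array, tandem small nucleolar RNA genes of the imprinted Prader-Willi/Angelman domain on chromosome 7. Its 7 regions lay between 67002751 and 67029900, covered 21150 of 27150 bp, and were 1050 to 5700 bp wide. They had medians of 15 to 17 copies in mm9, with the same medians counted on chromosome 7 alone. They held no TGCCGC and had a GC content of 47.9% to 50.4%. GENCODE M1 places 27 SNORD116 genes on this chromosome, and 13 were within 5 kb of the run.

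The nearest KAP1 peak lay 16950 to 40800 bp from the 7 regions and was of JB1 for each of them, and the nearest BJ1 ZFP57 peak was at least 118950 bp away. Snrpn, whose promoter is the imprinting control region of this domain, ended 97487 bp from the run. The next largest run held 5 regions over Gm3358 and Gm3500. Of the 9 runs with 4 or more regions 7 were on chromosome 14, and the remaining one beside SNORD116 held 4 regions at Gm4109 on chromosome 12, within 900 to 3300 bp of KAP1.

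Distance to KAP1 is bounded from below by the selection and is given against windows that overlap no peak of any list. The median gap to the nearest KAP1 peak of either line was 12000 bp (11400 to 12750) for ZFP57-only peaks and 15450 bp (15150 to 15750) for windows. To JB1 KAP1 alone it was 27450 bp, and to the longer BJ1 list 12750 bp. A KAP1 peak within 1 kb was found for 184 regions (4.95%, 4.27 to 5.70) and for 5.31% of windows. Within 10 kb the shares were 44.6% (43.0 to 46.3) and 37.0%. A gap of over 50000 bp was found for 403 regions (10.8%, 9.86 to 11.9) and 13.8% of windows, and of over 100000 bp for 67 regions (interval 1.40% to 2.28%) and 2.90% of windows.

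**Figure D4:**
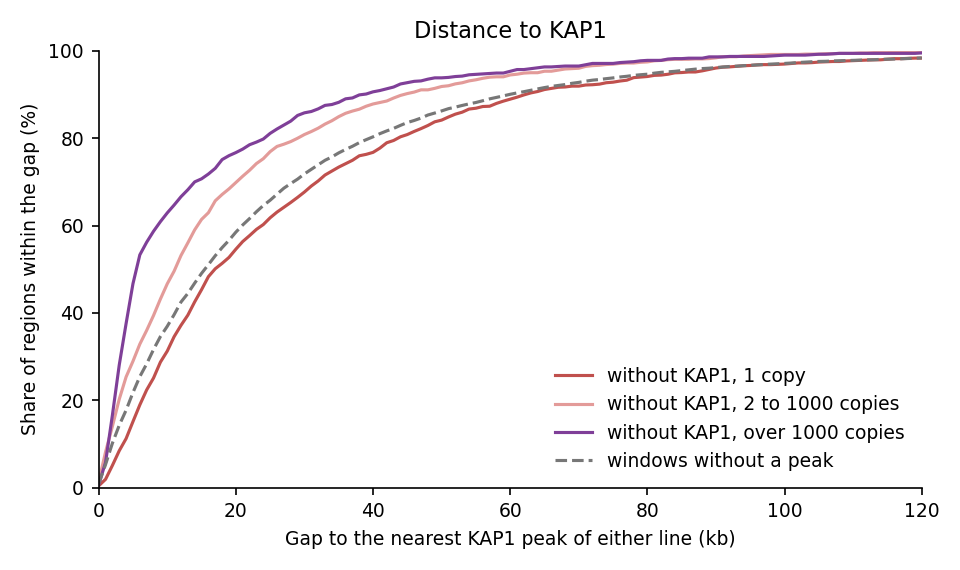
Cumulative share of regions (y axis, percent) by gap to the nearest KAP1 peak of either line (x axis, kb), for ZFP57-only peaks in 3 classes of copy number and for autosomal windows without a peak (dashed). Medians are 16950 bp for single-copy and 5250 bp for over-1000-copy ZFP57-only peaks, and 15450 bp for windows.

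Within a copy class the distances were close to those of windows. Single-copy ZFP57-only peaks had a median gap of 16950 bp (15600 to 18900) and single-copy windows 16800 bp (16350 to 17250). Regions with over 1000 copies had 5250 bp (5100 to 6000) and such windows 4800 bp (4500 to 5250). For the 3 classes between, medians were 10650 to 11550 bp in ZFP57-only peaks and 9000 to 11250 bp in windows, and the intervals overlapped in each class.

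The 5 regions farthest from KAP1 were all 300 bp wide, intronic and without TGCCGC. They were in Ntm, a neural cell adhesion gene (292050 bp, with 6828 copies), Shisa9 (277650 bp, printed above), Zbtb20, a transcriptional repressor gene (225750 bp), Galntl4, a glycosyltransferase gene (206550 bp), and Kcnip4, a potassium channel-interacting protein gene (200100 bp). The last 4 were single-copy. The Zbtb20 region was 1499 bp from an annotated TSS of that gene, and the others 9984 bp or more from a TSS.

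The median gap from a ZFP57-only peak to the nearest of the remaining JB1 ZFP57 peaks was 165300 bp (156750 to 175350), for which no window background was computed. One lay within 1 kb of 12 regions (0.323%) and within 10 kb of 143 (3.85%, 3.25 to 4.52).

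At the edge of the rule, 30 regions abutted a KAP1 peak with a gap of 0 bp and 29 had a gap of 150 bp to one of the other lists, while 37 JB1 ZFP57 peaks were left out for an overlap of at most 150 bp and 6076 for 300 bp or more. Of the first 5 regions just inside, in alphabetical order of chromosome name, none held TGCCGC and GC content was 39.7% to 43.1%, and of 5 just outside 1 held it, at Tmem163, with GC content of 39.6% to 52.9%.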

How the data were processed

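ChIP-seq for ZFP57 and KAP1 was carried out by the authors in JB1 and BJ1 ESCs, with 1 library per line and antibody and 1 input library per line (6 libraries). Per the labels and the study's methods, reads were trimmed (CASAVA 1.8.2, Trim Galore), aligned to NCBIM37/mm9 with Bowtie 0.12.7, and peaks were called with MACS. The versions, with SAMtools 0.1.18 and bedtools 2.14.3-1 for display, are from the submitters' processing notes. Whether the input served as control and how reads with several alignments were treated is not given in the sources used here. The deposited peak lists hold 1 interval per peak on a grid of 150 bp, called separately for each library, with no score, height, p-value or count, so depth and its effect on precision are unknown. Which settings of the peak caller gave this grid is not stated in those sources. No read data were re-analysed.

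ZFP57-only peaks were found by overlap of at least 1 bp. A gap is the number of bases between intervals. GENCODE M1 gave genes and TSSs. Contexts were assigned in the order TSS within 1 kb, coding exon, other exon, intron, intergenic. Motifs of 6 bases were searched on both strands of mm9 (TGCCGC and GGCCGC as written). Copy number counted every 24-base string of a region on both strands of the assembly. Backgrounds were all autosomal grid windows without unknown bases, or every 1000th window of 300 bp (15956, of which 15488 overlapped no peak). Gaps and motifs were checked on simulated data, where 3000 of 3000 planted gaps and 60 of 60 planted motifs were recovered. Shares carry exact Clopper-Pearson 95% intervals, medians order-statistic ones, and a string or motif found in 0 regions an upper limit of 3 counts. That limit was also taken for gene lists with 0 regions. No test was run across libraries, since there are no replicates. Computation was in Python 3.11.15 with pandas 2.3.3, numba 0.67.0 for the string counts, pysam 0.24.0 for the sequences, numpy 2.4.6, and scipy 1.17.1 for the intervals.

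The regions and gene lists were chosen with earlier results of these data known. Named regions were the 5 widest, the 5 farthest from KAP1, the 5 with most TGCCGC, the largest and next largest run, 5 just inside and 5 just outside the rule (first by chromosome name in alphabetical order), up to 6 genes per list nearest by TSS, the 5 genes with most regions, and up to 10 regions with a protein-coding TSS inside, by width. The single-copy regions with a TSS inside, the widest single-copy region, the run at Gm4109, the dense stretches of chromosome 14 and the printed 24-base strings were added after their values were seen. Alternatives varied the overlap rule, the lists, the width, the distances and the annotation. No repeat annotation was used, so repeated sequences are not named.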

Additional observations from a re-analysis of the deposited data

How the results depend on the processing

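Each alternative changed 1 choice, except that using only the JB1 KAP1 list dropped both BJ1 lists, and values that stayed within 1.5 times (counts) or within the interval of the reported value (shares, medians) are given only as a number: 35 of 61. The number of ZFP57-only peaks ranged from 3533 to 4232 over other overlap rules and lists and fell to 580 when only peaks over the median width of 450 bp were kept, and to 1630 with those of 450 bp or more. The share within 1 kb of a TSS was 4.91% for regions of 450 bp or more, 2.23% within 500 bp, 6.08% within 2 kb, 2.31% for protein-coding genes, and 2.84% without the dense stretches of chromosome 14. For the regions of 450 bp or more no window share of matching widths was computed. The share outside genes was 68.9% without those stretches, 60.6% for single-copy regions and 69.2% against protein-coding genes. With 150 bp added on either side, 2.10% held TGCCGC and 3.36% held TGCCGC or GGCCGC. The share in runs was 11.2% for regions of 450 bp or more, 6.01% without the stretches, 2.85% for single-copy regions, 6.11% at 5 kb and 14.1% at 20 kb. The median gap to KAP1 was 13050 bp when a gap of up to 1 kb counted as overlap, 9600 bp for regions of 450 bp or more, 16950 bp for single-copy regions and 27450 bp to JB1 KAP1 alone. Median GC content was 41% for regions of 450 bp or more and 42% for single-copy regions. The highest chromosome density, on chromosome 14, was 2.63 per Mb with 1 region per run. Without the stretches (2.39 per Mb) and for single-copy regions (1.57 per Mb) it was on chromosome 1. The alternatives without the stretches, for single-copy regions and for peaks of 450 bp or more in the number of regions were chosen after seeing the data. No paired analysis was possible because each line and antibody has 1 library and no replicate number.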
